A study of Mus musculus with 4 samples.

Results

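Nkg7, Fcer1g, Tyrobp and Hcst were followed across early mouse T-cell progenitors grown in culture. They were taken by symbol from the feature lists and are 4 of 31053 gene rows. All 4 were present in both experiments. Levels are given as CPM, the gene's unique molecular identifiers (UMIs, each marking 1 captured transcript) per 1000000 UMIs of the same cells. The 4 genes were chosen by their measured levels in these same cells, so those levels are a description and carry no test.

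The cells came from bone marrow of Bcl2 transgenic mice and were cultured on OP9-Dll1, a stromal line that presents a Notch ligand, with IL-7 and Flt3-ligand at 10 ng/ml each. Retroviral vectors were added on day 2, and each replicate culture was marked with its own hashtag, an antibody carrying a DNA barcode, before sorted cells were pooled into 1 mRNA library per experiment. In one arm, progenitors of 8 to 10 week old B6.Bcl2 mice received MSCV-Runx1-mCherry or the empty MSCV-mCherry vector and were taken on day 4 or 6 as Lineage-, mCherry+, CD45+ cells. In the other arm, progenitors of B6.Cas9;Bcl2 mice received E42 vectors with guides to Runx1 (hNGFR reporter) and Runx3 (mTurquoise reporter), 3 guide pairs per gene, or guides to luciferase, and were taken on day 5 or 8. Every group carried the Bcl2 transgene. The labels place experiment 1 at 4 to 5 days of culture and experiment 2 at 4 to 8 days, and call the cells cKit-high Phase 1 double-negative progenitors. The 8 hashtag columns of each table are named by their sequence alone, so no hashtag was tied to a vector, a guide or a day. Hashtags are numbered 1 to 8 in column order, and a number shared by the 2 experiments does not name the same culture.

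Nkg7 encodes a membrane protein of cytotoxic granules in natural killer cells and cytotoxic T cells. Fcer1g and Tyrobp encode the FcRγ chain and DAP12, short signalling partners that carry an ITAM, the tyrosine motif that recruits Syk-family kinases, and that pair with receptors lacking a signalling tail. Hcst encodes DAP10, which carries a YxxM motif for PI3-kinase in place of an ITAM and is the partner of the NKG2D receptor.

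Promoter windows are shown first because the study perturbed Runx factors, and the question of which members carry the Runx core word near their start is open to inspection. Each window holds 250 bases before and 50 bases after the annotated start, from RefSeq on GRCm38.p6, read on the gene's own strand. Windows were found for 3 of the 4 members, and Tyrobp had no entry. Capitals mark matches to the Runx core word TGTGGT or its reverse complement ACCACA.
Fcer1g (chr1:171234300-171234599, minus strand): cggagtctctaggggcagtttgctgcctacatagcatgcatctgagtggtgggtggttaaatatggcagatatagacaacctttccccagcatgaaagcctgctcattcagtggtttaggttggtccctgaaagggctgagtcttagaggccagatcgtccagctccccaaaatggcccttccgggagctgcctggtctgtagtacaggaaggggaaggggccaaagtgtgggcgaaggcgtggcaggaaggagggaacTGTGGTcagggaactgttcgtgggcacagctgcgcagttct
Nkg7 (chr7:43436888-43437187, plus strand): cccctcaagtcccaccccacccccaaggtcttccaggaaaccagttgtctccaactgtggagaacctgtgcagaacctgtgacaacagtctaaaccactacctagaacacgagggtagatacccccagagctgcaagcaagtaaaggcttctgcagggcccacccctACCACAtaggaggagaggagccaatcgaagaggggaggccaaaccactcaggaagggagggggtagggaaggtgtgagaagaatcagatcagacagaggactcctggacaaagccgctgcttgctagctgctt
Hcst (chr7:30419805-30420104, minus strand): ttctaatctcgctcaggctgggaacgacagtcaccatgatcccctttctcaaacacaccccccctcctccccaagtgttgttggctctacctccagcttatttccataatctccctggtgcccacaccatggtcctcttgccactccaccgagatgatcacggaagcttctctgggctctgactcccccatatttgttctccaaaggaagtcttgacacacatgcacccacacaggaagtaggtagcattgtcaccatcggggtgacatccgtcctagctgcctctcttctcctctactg

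The Nkg7 window held ACCACA 83 bases before the start, at position 168 of the window. The Fcer1g window held TGTGGT at position 260, inside the stretch that follows the start, and the Hcst window held neither form. Of 32851 RefSeq windows of the same length, 16.8% held the Runx word on either strand. Words of other factors of early T cells were searched on both strands too. The Spi1 word GAGGAAG, held by 13.6% of all windows, the word AGATAA of Gata3 and its relatives, held by 11.2%, and the Tcf7 word CTTTGA, held by 16.0%, were in none of the 3 windows. A match is a run of letters and not a binding site. On chromosome 7, Tyrobp (30413782 to 30417582) and Hcst (30417712 to 30419854) lie next to each other with 129 bases and no annotated gene between them. Nkg7 lies on the same chromosome at 43437138 to 43438246, and Fcer1g on chromosome 1 at 171229572 to 171234349.

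Experiment 1 gave 8797 hashtagged cells (691 to 1291 per hashtag, median 24753 UMIs per cell) and experiment 2 gave 8335 (855 to 1312 per hashtag, median 26338). Summed UMIs per hashtag ran from 14502385 to 38067298 and from 22272716 to 42684236. Barcodes were shared by the libraries for 28 of these cells. Kit, the receptor of the Phase 1 label, had a UMI in 71.8% of cells of experiment 1 and 51.9% of experiment 2. Runx1, a target of both arms, spanned 38.2 to 240.8 CPM over the hashtags of experiment 1 and 33.7 to 120.9 CPM over those of experiment 2. Runx3 spanned 115.1 to 181.2 CPM and 74.7 to 144.7 CPM. A vector transcript and the mouse gene cannot be told apart in the Runx1 counts, and with no condition named these levels check no label.

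All 4 transcripts were present in every hashtag, and the members differed in which hashtags were high. In experiment 1 the range over hashtags was widest for Fcer1g (2.24-fold) and narrowest for Tyrobp (1.45-fold). In experiment 2 it was widest for Tyrobp (3.49-fold), and Nkg7, Hcst and Fcer1g spanned 2.48-, 2.37- and 2.20-fold. The highest hashtag was at least 2-fold above the lowest for 1 of the 3 members above 50 CPM (Fcer1g) in experiment 1, where 5.54% of 2869 genes passed that ratio, and for 3 of 3 in experiment 2, where 9.53% of 2643 genes did. The median ratio over those genes was 1.22 in experiment 1 and 1.26 in experiment 2. Genes entered that count with an average level of 50 CPM or more and no hashtag under 10 UMIs. Hcst, under 50 CPM in both experiments, had ratios of 1.89 and 2.37. It is read against all genes with 10 or more UMIs in every hashtag, of which 19.8% of 11104 and 27.8% of 11552 reached 2-fold. Every interval below covers counting error only, at 95%.

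Nkg7, the granule protein, measured 356.5, 339.9, 433.9, 446.2, 348.3, 314.0, 240.4 and 260.0 CPM in hashtags 1 to 8 of experiment 1. Hashtags 4 and 3 were highest and 7 and 8 lowest, a ratio of 1.86 (interval 1.80 to 1.92). In experiment 2 Nkg7 measured 313.5, 351.2, 366.8, 633.0, 314.8, 255.5, 461.8 and 315.9 CPM. Hashtag 4 stood highest, followed by 7, and the other 6 lay between 255.5 and 366.8 CPM. The ratio was 2.48 (2.41 to 2.55), and 1.81 without hashtag 4.

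Fcer1g, the FcRγ chain, measured 216.8, 212.1, 475.4, 469.7, 355.5, 329.8, 223.9 and 238.0 CPM in hashtags 1 to 8 of experiment 1. Hashtags 3 and 4 were highest, 5 and 6 lay between, and 1, 2, 7 and 8 were low, with a ratio of 2.24 (2.18 to 2.30). Hashtags 3 and 4 did not differ beyond counting error. In experiment 2 the levels were 279.5, 504.8, 229.1, 440.6, 356.0, 270.5, 357.9 and 281.6 CPM, highest in hashtag 2 and lowest in 3. That ratio was 2.20 (2.15 to 2.26), and it was 1.92 without hashtag 2 and 1.87 without hashtag 3.

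Tyrobp, the DAP12 chain, measured 433.9, 507.9, 587.0, 558.4, 420.5, 496.9, 522.4 and 609.8 CPM in hashtags 1 to 8 of experiment 1. This was the flattest of the 4, with hashtag 8 highest, 5 lowest and a ratio of 1.45 (1.41 to 1.49). In experiment 2 it measured 746.6, 868.6, 545.3, 505.6, 846.1, 878.9, 251.5 and 556.0 CPM. Hashtags 6, 2 and 5 lay above 846 CPM, and hashtag 7 stood far below the others. The ratio of hashtag 6 to hashtag 7 was 3.49 (3.40 to 3.60), and the ratio fell to 1.74 when hashtag 7 was left out.

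Hcst, the DAP10 chain, was the scarcest of the 4 by UMIs, at 24.1, 22.5, 17.9, 17.9, 29.2, 26.3, 33.7 and 30.3 CPM in hashtags 1 to 8 of experiment 1. Hashtags 7 and 8 were highest and 3 and 4 lowest, with a ratio of 1.89 (1.69 to 2.11). Of the 7 neighbouring pairs in its order, 6 did not differ beyond counting error. In experiment 2 it measured 28.0, 21.0, 32.2, 43.6, 31.6, 31.4, 49.8 and 38.3 CPM, highest in hashtag 7 and lowest in 2. The ratio was 2.37 (2.14 to 2.62), and 1.78 without hashtag 2.

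**Figure D1:**
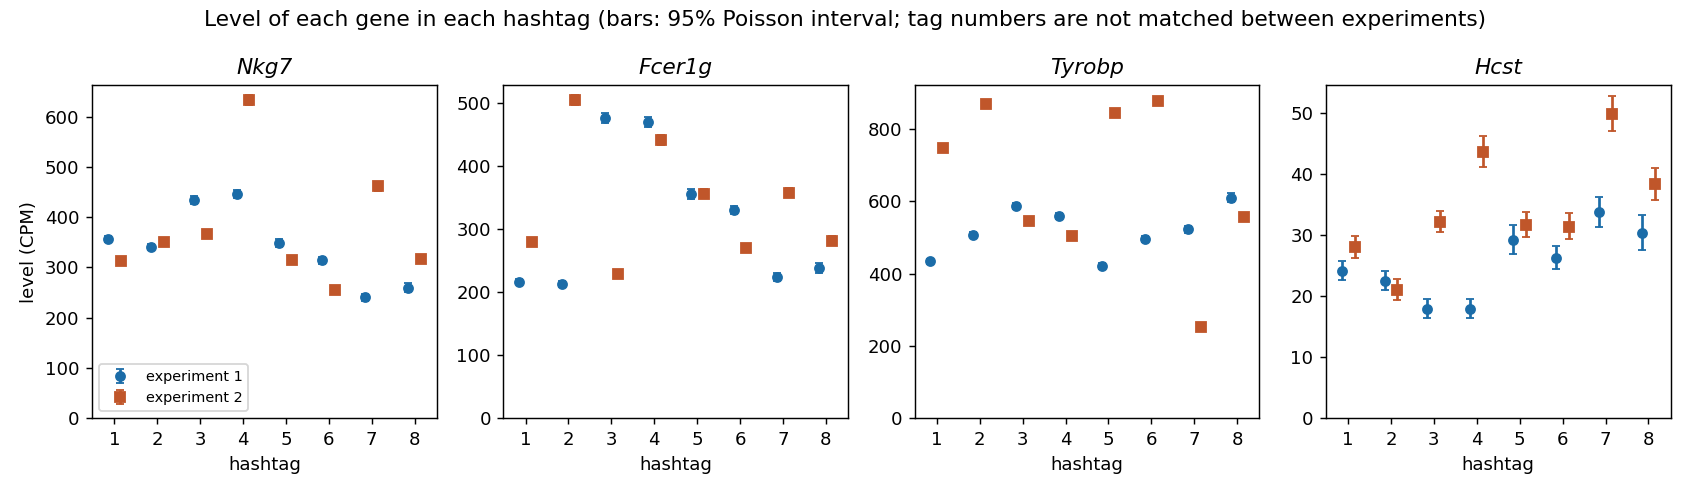
Level of Nkg7, Fcer1g, Tyrobp and Hcst (CPM, linear axis from 0) in hashtags 1 to 8 of experiment 1 (circles) and experiment 2 (squares), with exact 95% Poisson intervals. In experiment 2 hashtag 4 is highest for Nkg7 at 633.0 CPM, and hashtag 7 is lowest for Tyrobp at 251.5 CPM and highest for Hcst at 49.8 CPM.

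Of 11 marker lists, 3 had the same highest and lowest hashtag as Tyrobp in experiment 2. The summed level of 11 granulocyte markers was lowest in hashtag 7 (200.0 CPM) and highest in hashtag 6 (12478 CPM), and the same 2 hashtags were the ends for 10 monocyte or macrophage markers (92.4 and 732.5 CPM) and for 8 markers of stem or multipotent progenitors (159.0 and 695.8 CPM). Dendritic markers were highest in hashtag 5 and lowest in 1, mast or basophil markers in 4 and 1, and B-lineage markers in 8 and 3. The part of these cells in the Tyrobp levels was tested only by leaving clusters out. All 11 granulocyte markers and 7 of the 10 monocyte or macrophage markers reached 10 CPM in some hashtag. Without the clusters named for a class other than progenitor, T-lineage or innate lymphoid (6772 cells left), Tyrobp still measured 199.6 CPM in hashtag 7 and 866.8 CPM in hashtag 2, the lowest and highest, a ratio of 4.34. Fcer1g then spanned 3.94-fold, since its level in hashtag 6 went from 270.5 to 135.5 CPM. Nkg7 spanned 2.27-fold and Hcst 2.42-fold under that restriction. It kept the clusters without a name, among them cluster 9 (1091 cells, 5 dendritic markers, Tyrobp at 814.8 CPM). Hashtag 7 differed in its mix of cells and, within cluster 2, in level. Cluster 2, which had Il2ra, Thy1 and Bcl11b among its genes, held 713 of the 1017 cells of hashtag 7. Within that cluster Tyrobp was 58.6 CPM in hashtag 7 against 82.6 to 161.8 CPM in the other 6 hashtags with at least 30 such cells. In clusters 4, 7 and 8 Tyrobp of hashtag 7 (401.8, 659.3 and 1877 CPM) lay inside the range of the other hashtags.

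Over all hashtagged cells, levels in experiment 2 over experiment 1 were 1.06 for Nkg7 (372.5 against 352.7 CPM), 1.05 for Fcer1g (332.3 against 316.0), 1.28 for Tyrobp (656.5 against 511.6) and 1.39 for Hcst (33.7 against 24.3). None of the 4 was at least 2-fold different, as were 0.866% of 2772 genes. Each experiment is 1 library with its own span of culture days, so library and time cannot be told apart. For Tyrobp, 4 of 8 hashtags of experiment 2 lay above the highest of experiment 1 and 1 lay below the lowest.

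UMIs of Nkg7, Fcer1g and Tyrobp were found together in 53.2% to 92.6% of cells per hashtag in experiment 1 (median 82.0%) and in 39.8% to 88.5% in experiment 2 (median 62.4%), a share that depends on depth. Nkg7 had at least 1 UMI in 76.1% to 97.8% of cells per hashtag in experiment 1 (median 94.4%) and 75.5% to 92.5% in experiment 2 (median 88.5%). Tyrobp had one in 83.9% to 96.4% of cells and 54.8% to 96.2%, Fcer1g in 71.3% to 97.4% and 66.7% to 97.4%, and Hcst in 32.9% to 48.5% and 40.0% to 64.3%. With every cell thinned to 5000 UMIs, the median hashtag share was 76.4% and 70.3% for Nkg7, 64.0% and 63.8% for Fcer1g, 75.7% and 76.5% for Tyrobp, and 12.6% and 15.6% for Hcst. Thinning left out 195 cells of experiment 1 and 185 of experiment 2 that were shallower. The lowest thinned share of Tyrobp was 34.1%, in hashtag 7 of experiment 2.

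How much free RNA adds to such shares was not measured. In the 80 B-lineage-like cells of experiment 2, taken for comparison, 28.8% had a UMI of Nkg7, 22.5% of Fcer1g, 33.8% of Tyrobp and 22.5% of Hcst, at a median of 17438.5 UMIs per cell against 26338 over all cells. The 27 such cells with Tyrobp held 20.2 UMIs of it on average and the 23 with Nkg7 held 9.35, so these shares were not used as a background. Hcst stood at 10.3 CPM there, with 18 UMIs in 18 cells, below its level in every hashtag.

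In the median hashtag the 4 transcripts were only loosely tied to each other cell by cell. In thinned cells the median Spearman rho over 8 hashtags between Nkg7 and Tyrobp was -0.08 in experiment 1 and -0.24 in experiment 2, with rho above 0 in 1 of 8 hashtags each time. Between Fcer1g and Tyrobp, the ITAM pair, it was -0.06 and 0.18. Single hashtags of experiment 2 ran from -0.45 to 0.006 for Nkg7 and Tyrobp and from -0.008 to 0.35 for Fcer1g and Tyrobp. These are descriptions over 8602 and 8150 cells that share libraries and depth, and in sparse counts medians this small are weak. UMIs of Nkg7, Fcer1g and Tyrobp together were found in 23.5% to 60.9% of thinned cells per hashtag in experiment 1 (median 34.1%) and 13.7% to 57.8% in experiment 2 (median 28.9%), and UMIs of none of the 4 in 0.260% to 7.46% and 1.46% to 9.18%.

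Clusters were built without the 4 members, and gave 12 in experiment 1 and 17 in experiment 2. Tyrobp was highest in clusters led by myeloid or dendritic genes. Clusters with T-lineage genes held both low levels and, where Pgam2 and Gsn led them, high ones. It reached 1912 CPM (interval 1885 to 1940) in the dendritic-like cluster 8 of experiment 2 (502 cells, led by Ccl22), 1271 CPM in cluster 12 (440 cells, led by Prg2, Clec5a and Ms4a3) and 1170 CPM in the granulocyte-like cluster 13 (173 cells, led by Camp and Ngp). In experiment 1 it was highest at 971 CPM in the granulocyte-like cluster 4 (702 cells, led by S100a8 and S100a9). It was 110.3 CPM in cluster 2 of experiment 2 (1805 cells, with Tcrg-C2, Epcam and Il2ra among its genes). It was 180.5 CPM in cluster 2 of experiment 1 (1567 cells, led by Epcam and Tcrg-C2). Cluster 1 of experiment 2 (585 cells), led by Pgam2 and Themis, held 259.0 CPM.

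Among clusters with genes of early progenitors, some combined high Tyrobp with low Fcer1g. Cluster 3 of experiment 2 (567 cells, led by Egfl7, Cox4i2 and Cd81, with Cd34, Lmo2 and Mef2c) held 788.6 CPM of Tyrobp and 38.1 CPM of Fcer1g (627 UMIs). Only 45.0% of its cells had a Fcer1g UMI at a median of 27913 UMIs per cell. In cluster 1 of experiment 1 (1366 cells, led by Ccnd1 and Lmo2, with Cd34 and Mef2c), Tyrobp was 668.5 CPM and Fcer1g 168.0 CPM. Of the 567 cells of cluster 3, 357 (63.0%) came from hashtag 6 and 202 from hashtag 8. Nkg7 was 370.6 CPM and 358.4 CPM in these 2 clusters, near its level over all cells.

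A pair of clusters led by Pgam2 and Gsn in experiment 1 (cluster 6 with 801 cells, cluster 7 with 859) held Fcer1g at 525.6 and 605.2 CPM, Tyrobp at 516.9 and 705.7 CPM and Hcst at only 16.3 and 14.5 CPM. Cd3g and Gata3 were among the leading genes of both. Cluster 6 of experiment 2, also led by Pgam2 and Gsn (844 cells, 73.6% from hashtag 2), likewise held Fcer1g at 556.5 CPM and Hcst at 18.8 CPM, with Tyrobp at 953.9 CPM and with Tcf7 and Gata3 among its genes. In experiment 1 nearly all cells of both clusters came from hashtags 3 and 4. These gave 386 and 414 of the 801 cells of cluster 6, and 432 and 423 of the 859 cells of cluster 7. Where a cluster is mostly of 1 or 2 hashtags, culture and cell type cannot be told apart.

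Innate lymphoid-like clusters expressed all 4 members. In experiment 2 (cluster 16, 195 cells, led by 9130015A21Rik, Tnni1, Il13 and Ncr1) Fcer1g measured 1019 CPM, Tyrobp 819.6, Nkg7 809.2 and Hcst 93.8. In experiment 1 (cluster 8, 169 cells, led by 9130015A21Rik, Lgals3 and Klrk1) the levels were 781.4, 467.3, 524.3 and 51.8 CPM. Over the 4 hashtags with at least 30 such cells in experiment 2, Fcer1g ranged from 837.1 to 1250 CPM and Nkg7 from 451.2 to 1192 CPM.

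Nkg7 and Hcst parted from the ITAM chains in a small cluster of experiment 2 (cluster 0, 167 cells) led by Gzmc, Cd8b1, Ifng and Trac, genes of cytotoxic T cells. It was left without a name because its leading genes mixed mature T-cell and innate lymphoid markers. Nkg7 reached 1327 CPM (1295 to 1360) and Hcst 107.4 CPM (98.3 to 117.1) there. Pooled over hashtags both were the highest of any cluster, though the Hcst interval overlapped that of cluster 16 (84.0 to 104.4 CPM). Fcer1g was 96.5 CPM and Tyrobp 78.6 CPM in cluster 0. A Tyrobp UMI was found in 28.1% of its cells, at 8 UMIs in each on average, and its 2 hashtags with at least 30 such cells held 23.6 and 145.8 CPM. Of these cells, 63.5% came from hashtag 4. Between those 2 hashtags Nkg7 ranged from 779.0 to 1682 CPM and Hcst from 61.2 to 139.8 CPM, both lower in hashtag 3. In hashtag 3 the innate lymphoid-like cluster 16 held more of both (887.9 and 89.2 CPM). In hashtag 4 it held less (1192 and 126.8 CPM), but the mast or basophil-like cluster 14 held 146.1 CPM of Hcst. Without cluster 0, hashtag 4 held 511.7 CPM of Nkg7 instead of 633.0 and 32.5 CPM of Hcst instead of 43.6. The Nkg7 ratio was then 2.04.

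The reverse, low Nkg7 beside high Fcer1g, was seen in the dendritic-like cluster 8 of experiment 2. It held Nkg7 at 48.2 CPM, with a UMI in 19.9% of cells, beside Fcer1g at 715.8 CPM. This was not particular to dendritic-like cells. Cluster 12, led by Prg2, Clec5a and Ms4a3, held Nkg7 at 98.5 CPM beside Fcer1g at 455.2 CPM. The low Nkg7 of the dendritic-like class depended on the clustering: it was 98.5 CPM at a Leiden resolution of 1.0 and 218.9 CPM with 3000 variable genes. In cluster 10 (40 cells, led by Xcr1, Naaa and Clec9a, genes of cross-presenting dendritic cells) Tyrobp was 854.5 CPM, Fcer1g 35.2 CPM (30 UMIs) and Nkg7 8.20 CPM (7 UMIs, interval 3.30 to 16.9). The 2 dendritic-like clusters thus differed in Fcer1g beyond counting error. Mast or basophil-like cells of experiment 2 (cluster 14, 121 cells) held Fcer1g, the partner of the high-affinity IgE receptor, at 782.4 CPM, Nkg7 at 583.4 and Hcst at 83.0. Between its 2 hashtags with at least 30 cells Fcer1g ranged from 212.5 to 1467 CPM. In experiment 1 the like cluster (116 cells) held Fcer1g at 259 CPM.

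**Figure D2:**
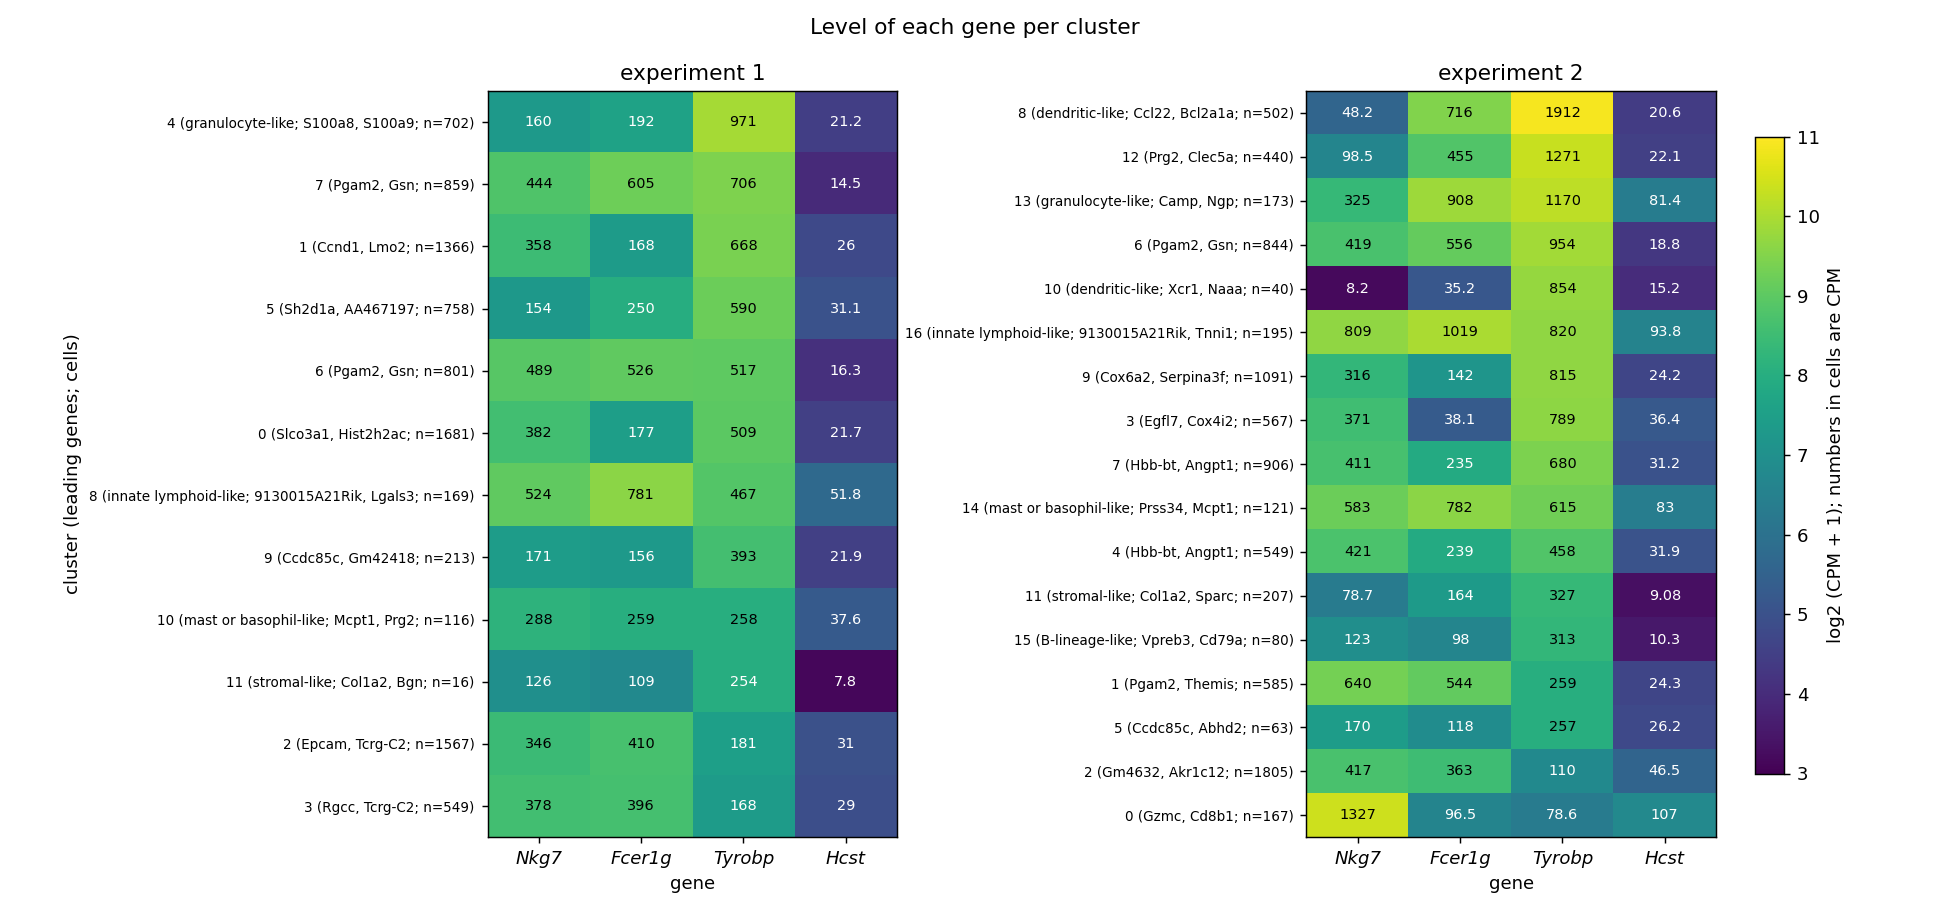
Level of each gene (number in each cell, CPM; colour, log2 of CPM + 1) in the clusters of experiment 1 and experiment 2, ordered by Tyrobp, with leading genes and number of cells. Tyrobp falls from 1912 to 78.6 CPM down the column of experiment 2, while Nkg7 is highest in the last row at 1327 CPM.

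Cells were then split by a UMI of genes that mark steps of T-lineage entry. Ratios pool the cells of all hashtags, so they also carry differences between hashtags. The split was repeated inside each hashtag with at least 30 cells on both sides. No cluster was left out, so myeloid and dendritic-like cells are in these splits, and their part was not tested. Tyrobp was higher with Spi1 and Lmo2 and lower with the T-lineage genes. Cells with a UMI of Spi1, the factor PU.1, had 2.10 times the Tyrobp level of cells without in experiment 1 (547.6 against 261.0 CPM) and 4.32 times in experiment 2 (754.9 against 174.7), higher in 8 of 8 hashtags each time (median hashtag ratio 2.47 and 3.87). With Lmo2, a progenitor transcription cofactor, the ratio was 1.75 and 2.27, again in 8 of 8. Progenitor receptor genes did not all go this way. With Flt3 the ratio was 1.33 and 1.31 (higher in 8 of 8 and 6 of 7 hashtags). With Kit it was 0.85 and 0.81 (higher in 0 and 2 of 8), and 0.99 and 0.94 after thinning. With Il2ra, the IL-2 receptor chain of the later double-negative cells, it was 0.52 and 0.39, and with Bcl11b, the T-lineage commitment factor, 0.51 and 0.27, lower in 8 of 8 hashtags in both (median 0.33 and 0.32 for Bcl11b). Cells with a Spi1 UMI were also deeper (median 25829.5 against 19073 UMIs in experiment 1, 28728.5 against 18265 in experiment 2). After thinning every cell to 5000 UMIs the Spi1 ratio was 1.66 and 2.64 and the Bcl11b ratio 0.46 and 0.21.

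Fcer1g followed another set of gate genes. In cells with a UMI of Zbtb16, the innate-like factor PLZF, it was 2.03 and 1.79 times as high (median hashtag ratio 1.73 and 1.54), in 8 of 8 hashtags of experiment 1 and in 6 of the 6 that could be compared in experiment 2. With Tcf7, a T-lineage factor induced by Notch, the ratio was 2.02 in experiment 1 (median 1.74, 8 of 8 hashtags) and 1.30 in experiment 2 (median 1.24, 6 of 8). It was lower with Flt3, the receptor of multipotent progenitors, at 0.37 and 0.43, in 8 of 8 and 7 of 7 hashtags. Bcl11b gave a pooled 1.53 in experiment 1, above the ratio inside every hashtag there (0.50 to 1.41, median 1.26, 7 of 8 higher). In experiment 2 it gave 1.02, with a median of 0.84 and 3 of 8 hashtags higher.

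Nkg7 was higher in cells with either of 2 lymphocyte receptor genes, and Hcst in all of these splits but that by Cd3e in experiment 1. Whether the experiments differ in this was not tested. With Il2rb, the IL-2 and IL-15 receptor chain, Nkg7 was 1.32 times as high in experiment 1 and 2.24 times in experiment 2, and Hcst 1.47 and 2.24 times, each in 7 of the 7 hashtags compared. The median hashtag ratios were 1.38 and 1.74 for Nkg7 and 1.59 and 1.83 for Hcst. After thinning these ratios were 1.69 and 2.72 for Nkg7 and 2.16 and 2.78 for Hcst. The Il2rb rise was not particular to this pair. Fcer1g was 1.96 and 1.42 times as high with Il2rb (7 of 7 and 6 of 7 hashtags), and 2.16 and 1.70 after thinning. With Cd3e, a CD3 chain, Nkg7 was 1.24 and 1.96 times as high (5 of 5 and 6 of 6 hashtags), though the hashtag ratios of experiment 1 ran only from 1.04 to 1.16, below the pooled value. Hcst was 1.02 and 1.81 times as high (3 of 5 and 6 of 6), and after thinning 0.79 and 2.36, so its direction in experiment 1 turned with depth. In the same Cd3e split Tyrobp was 0.55 and 0.28 times as high, and after thinning 0.46 and 0.14. The Il2rb and Cd3e splits of experiment 2 contain the cytotoxic cluster 0, in which both genes were found, and the part it plays in them was not tested. For Runx1 and Runx3 UMIs the pooled ratios of all 4 members lay between 0.69 and 1.13 in both experiments. With a Runx1 UMI, Nkg7 was lower in 8 of 8 hashtags each time (median hashtag ratio 0.87 and 0.81, pooled after thinning 0.84 and 0.84). Fcer1g was higher in 1 of 8 and 0 of 8, Tyrobp in 2 and 1, and Hcst in 4 and 0. These counts are unthinned, and cells with a Runx1 UMI were deeper (median 28998 against 20937 UMIs in experiment 2). Pooled after thinning, the Runx1 ratio was 0.835 and 0.856 for Fcer1g and 0.999 and 0.877 for Tyrobp. For Hcst it was 1.15 and 1.09, against an unthinned 0.84 in experiment 2, so its direction there turned with depth. With a Runx3 UMI, Nkg7 was higher in 6 of 8 hashtags each time. Its pooled ratio did not show this rise in experiment 2, at 1.01 and 0.799, and after thinning it was 0.993 and 0.933.

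**Figure D3:**
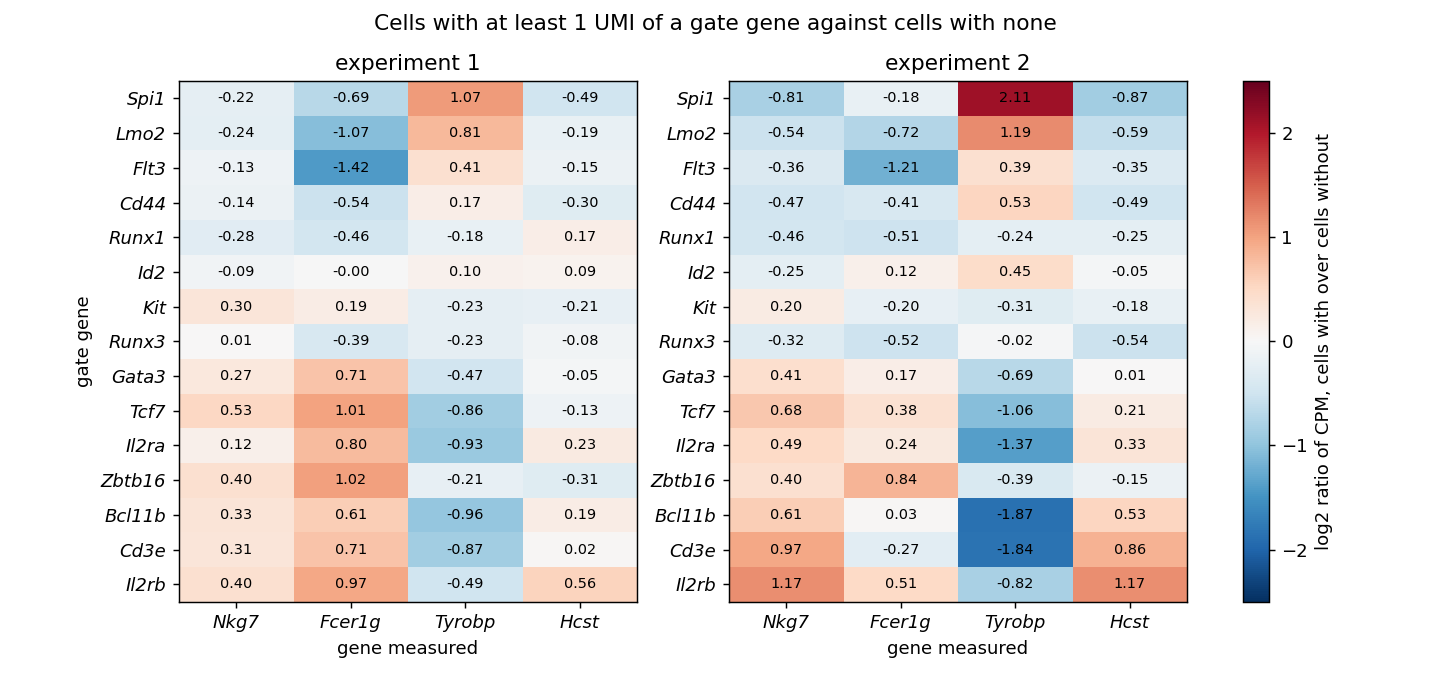
Log2 ratio of each member's CPM in cells with at least 1 UMI of a gate gene over cells with none, for 15 gate genes in experiment 1 and experiment 2 (unthinned; red higher, blue lower with the gate gene). Tyrobp runs from 1.07 and 2.11 with Spi1 to -0.96 and -1.87 with Bcl11b, and Nkg7 from -0.22 and -0.81 to 0.33 and 0.61 with the same pair of gate genes.

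Splitting by Kit and Il2ra, the surface genes that order the double-negative steps, gave Tyrobp levels in the same direction. These gates too hold cells of every cluster, the myeloid and dendritic-like among them, whose part was not tested. Tyrobp was 687.7 CPM in cells with Kit and without Il2ra (2317 cells of experiment 1) and 379.1 CPM with both (3999 cells). It was 244.2 CPM in cells with Il2ra and Bcl11b (1169 cells, a gate that overlaps the others). In experiment 2 the same gates held 801.0, 394.2 and 171.1 CPM. Over hashtags, cells with Kit and without Il2ra ranged from 539.6 to 852.4 CPM in experiment 1 and those with both from 291.1 to 477.5 CPM, so the ranges did not overlap. In experiment 2 these ranges were 633.7 to 996.3 and 178.6 to 619.8 CPM and did not overlap either. Fcer1g went the other way, from 220.7 to 385.4 CPM between those 2 gates in experiment 1, and 244.2 to 379.6 CPM in the second experiment, but its hashtag ranges overlapped. Nkg7 changed little between them (362.6 to 373.0 CPM, and 371.0 to 416.2 CPM), as did Hcst (21.1 to 24.7 CPM, and 29.3 to 34.5 CPM). Cells with neither Kit nor Il2ra held the most Tyrobp, 843.5 and 1065 CPM, and among the least Nkg7, 254.2 and 244.8 CPM. A UMI of 0 in a cell does not show that the gene is off, and median depth differed between the gates (25661, 25791 and 22348 UMIs for the Kit alone, both and neither gates of experiment 1).

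**Figure D4:**
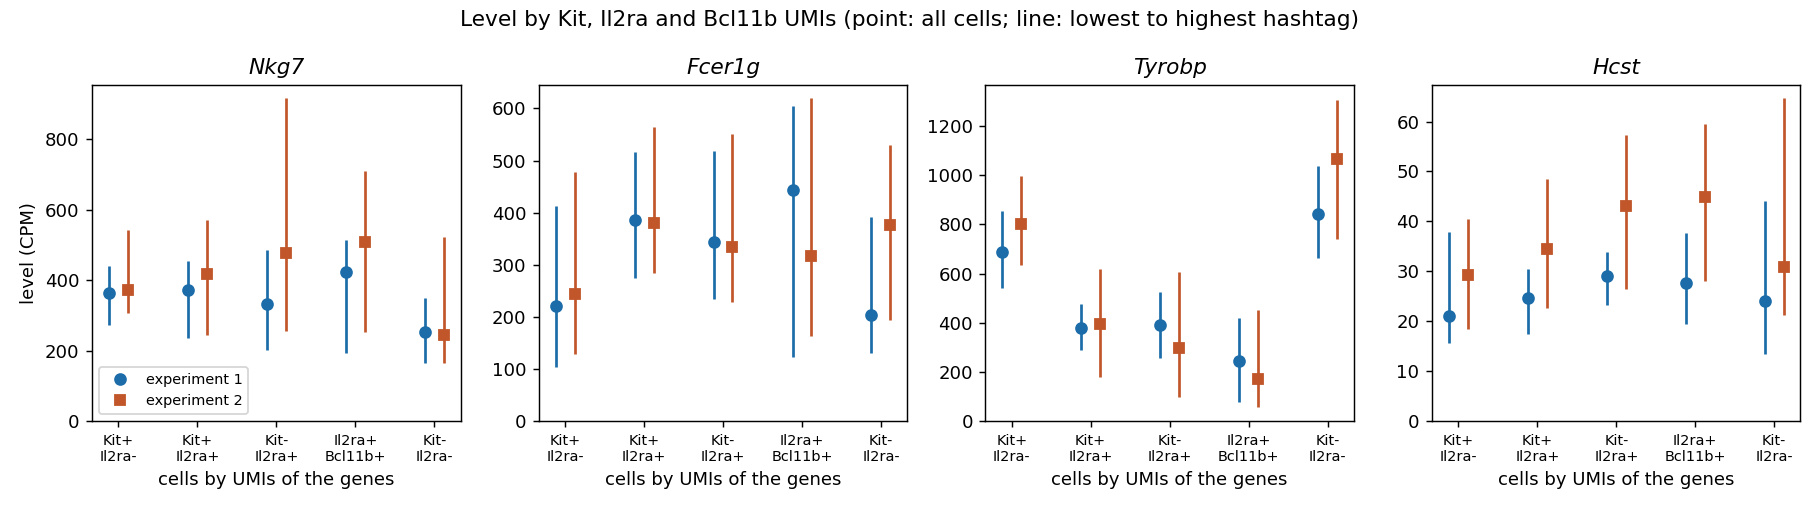
Level of each member (CPM, linear axis from 0) in cells split by UMIs of Kit, Il2ra and Bcl11b; points are all hashtagged cells of experiment 1 (circles) or 2 (squares), lines run from the lowest to the highest hashtag. Tyrobp drops from 687.7 and 801.0 CPM in Kit+ Il2ra- cells to 244.2 and 171.1 CPM in Il2ra+ Bcl11b+ cells.

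The adaptors were abundant beside a list of receptor genes drawn up for FcRγ, DAP12 and DAP10. Whether each listed gene, Cd226 and Klrd1 among them, itself pairs with one of these adaptors was not checked. Of the 36 listed, 34 were in the feature lists, and only 8 in experiment 1 and 11 in experiment 2 reached 10 CPM in any hashtag. Their summed level was 79.9 to 182.3 CPM (median 115.1) in experiment 1 and 100.7 to 218.2 CPM (median 164.6) in experiment 2. The summed level of Fcer1g, Tyrobp and Hcst was 674.9 to 1080 CPM (median 829.1) and 659.2 to 1394 CPM (median 1022). At least 1 receptor UMI was found in 74.4% to 89.1% of cells per hashtag and in 65.9% to 89.0%. These are 3' UMI counts not divided by transcript length.

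By median over hashtags the highest receptor was Clec4d, a C-type lectin that uses FcRγ, at 31.2 to 43.7 CPM in experiment 1 and 21.9 to 40.5 CPM in experiment 2. Clec4e came second in experiment 1 (median 15.2 CPM) and Klrd1 (CD94) in experiment 2 (median 17.6 CPM). Klrd1 reached 39.0 and 49.2 CPM in its highest hashtags, with a median of 4.88 CPM in experiment 1. Klrk1, which encodes NKG2D, the DAP10 receptor, was 1.18 to 8.61 CPM in experiment 1 and 2.04 to 45.3 CPM in experiment 2, where hashtag 4 was highest. Hcst was second highest in that hashtag. Among receptors with 10 or more UMIs in every hashtag, Klrd1 spanned the widest range in experiment 1 (19.4-fold) and Trem3, a DAP12 receptor of myeloid cells, in experiment 2 (36.7-fold). A ratio could be formed for 13 receptors each time. It reached 2-fold for 12 in experiment 1 and 11 in experiment 2, with median ratios of 3.22 and 4.76. Over all genes with 10 or more UMIs in every hashtag these medians were 1.38 and 1.48, and 19.8% and 27.8% reached 2-fold.

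**Figure D5:**
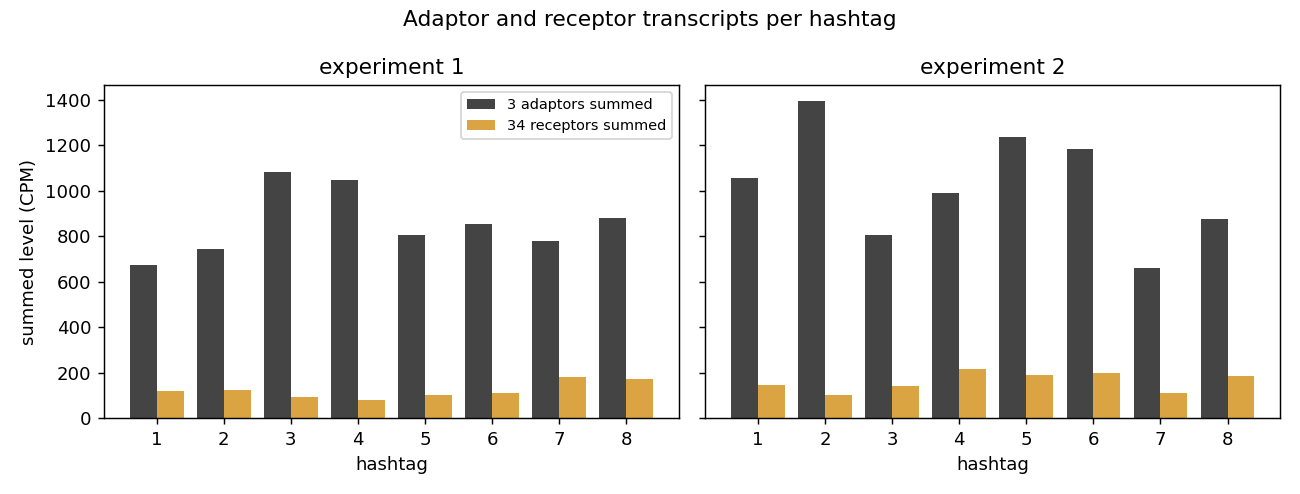
Summed CPM of Fcer1g, Tyrobp and Hcst (dark bars) and of the 34 receptors (light bars) in each hashtag of experiment 1 and experiment 2, on a linear axis from 0. Adaptor sums run from 659.2 to 1394 CPM over both experiments and receptor sums from 79.9 to 218.2 CPM.

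The CD3 chains, which are ITAM adaptors of the T-cell receptor, were far more uneven than the members. Cd3g spanned 13.5 to 193.9 CPM in experiment 1 and 20.9 to 742.5 CPM in experiment 2, and Cd3d 2.16 to 31.2 CPM and 3.53 to 231.7 CPM, both highest in hashtag 4. Cd247, the ζ chain, reached 15.5 and 42.7 CPM. Of 6 such adaptors other than the members, 4 of 5 and 5 of 6 with enough UMIs reached 2-fold, with median ratios of 8.52 and 25.2, against the same 19.8% and 27.8% of all genes. Downstream, 26 kinases and adaptors had median ratios of 1.70 and 1.81, and 8 of 23 and 11 of 24 reached 2-fold, beside medians of 1.38 and 1.48 over all genes. Lck, the kinase of T-cell receptor signalling, was the widest above 150 CPM, at 50.0 to 172.7 CPM and 34.4 to 241.5 CPM.

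Other cytotoxic granule genes did not share one course with Nkg7. Gzma ran from 562.7 to 2050 CPM in experiment 1, highest in hashtag 5, and in experiment 2, highest in hashtag 7, it ran from 297.6 to 2262 CPM. Gzmb ran from 56.1 to 201.6 CPM and from 36.8 to 497.3 CPM, highest in hashtags 6 and 4. Gzmc reached 453.1 CPM in hashtag 4 of experiment 2 from 0.412 CPM in the lowest (11 UMIs), and Xcl1 176.1 CPM from 1.69 CPM. Srgn, the granule proteoglycan, varied least, from 656.1 to 769.9 CPM and from 604.8 to 724.2 CPM. Of the 19 granule genes, 6 of 12 with enough UMIs reached 2-fold in experiment 1, where 19.8% of all such genes did, and 13 of 16 in experiment 2, where 27.8% did.

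Genes whose hashtag pattern was most like a member's were ranked by the lower of 2 Pearson correlations of log2 (CPM + 1), 1 over the 8 hashtags of each experiment, among 2531 genes. The 8 points of an experiment share a library, and many genes were searched, so these are descriptions. For Nkg7 they were Spc24 (r = 0.96 and 0.97), Mns1 (0.96 and 0.96), Anp32e, Mrpl41 and Ndufs6. For Fcer1g they were Spag9 (0.91 and 0.93), Slc38a2, Ccni, Atp6ap2 and Ttc3. For Tyrobp they included Lsp1, Samhd1, Atp6v0e and Actr3. For Hcst they were Jun (0.91 and 0.90), Saraf, Jund, Tpt1 and Rgcc. No member was among the 5 nearest of another. Between Nkg7 and Fcer1g the correlation was 0.73 in experiment 1 and 0.51 in experiment 2, the one pair above 0.5 in both. The correlation between Nkg7 and Hcst was -0.92 in experiment 1 and 0.56 in experiment 2, and that between Tyrobp and Hcst, neighbours on chromosome 7, was -0.27 and -0.83.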

How the data were processed

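Per the labels, the libraries are 10x Chromium version 3, and per the submitters' processing notes Cell Ranger 3.0.0 and the builds mm10 and GRCm38 were used. The deposited matrices hold raw UMI counts per gene and cell, and the deposited tables of hashtags hold unscaled counts, with 8 tags a cell. No normalization was applied by the authors to either. A cell was kept at 500 or more genes and under 10% mitochondrial UMIs (9332 of 9967 and 10214 of 10556 barcodes). A hashtag was called where the top column had at least 50 counts and at least 3 times the second, which also removed mixtures of hashtags. No doublet caller was run, so doublets within a hashtag remain. UMIs were summed per hashtag and scaled to CPM. Intervals are exact Poisson, exact conditional (ratios) or Clopper-Pearson (shares). No test between groups was run, since hashtags carry no condition and each experiment is 1 library. The script for ratios was tested on simulated data. Clusters came from scanpy 1.11.5 (2000 variable genes, 30 components, 15 neighbours, Leiden resolution 0.5) without the 4 members. A cluster was named from at least 3 listed markers among its 50 leading genes, more than of any other list, with no other list ahead among the top 10 genes; it stayed unnamed where 2 of those 10 were mature T-cell markers, or where cells were shallow. This rule was set with the data in view. The members and lists were chosen with earlier results of these data known. Named genes are the members, the listed genes with the highest level or widest ratio, and for each member the 5 genes most like it; other genes of the lists that are named, and the cluster leaders, were chosen after their values were seen. Alternatives were other hashtag calls (HTODemux of Seurat 5.3.0), cell filters, scalings (edgeR 4.0.16 TMM, DESeq2 1.42.0 size factors), thinning, clusterings and each hashtag left out. Leaving out the Gzmc and Cd8b1 cluster, and thinning before cells were split by a gate gene, were chosen after seeing the data. A gene ranked as like Tyrobp across hashtags is not reported here.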

Additional observations from a re-analysis of the deposited data

Results flagged for a closer look

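Cells that passed the filters but had no clear hashtag were used in no comparison, and all 4 members were detected there. In the 535 such cells of experiment 1, with a median of 43493 UMIs against 24753 in hashtagged cells, Nkg7 measured 336.3 CPM, Fcer1g 302.9, Tyrobp 494.4 and Hcst 22.8. In the 1879 of experiment 2, with a median of 29199 UMIs, the levels were 287.8, 303.0, 608.6 and 32.1 CPM. Each value lies inside the range of the 8 hashtags of its experiment.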

How the results depend on the processing

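The number of members with a hashtag ratio of at least 2 in experiment 1 was 1, and it became 2 with the mean over cells and 2 with cells thinned to 5000 UMIs, Hcst being added both times. It became 3 without cells holding 5 or more UMIs of other-class markers. That filter left 799 of 8797 cells there and 502 of 8335 in experiment 2. Its lists hold genes that progenitors also express, such as Flt3, which is on both the dendritic and the progenitor list. The cells left are therefore not simply the cells free of other classes. Under that filter the Tyrobp ratio of experiment 2 was 16.3, between hashtags 2 and 6, so the order of hashtags changed. Hashtag 6, highest in the main result at 878.9 CPM, was then lowest at 43.4 CPM, and hashtag 7 held 56.6 CPM. In experiment 2 the number was 4, Hcst included. With each hashtag left out it ranged from 2 to 4, with 2 without hashtag 2 and 3 without hashtag 3, 4 or 7. In experiment 1 it was 1 each time a hashtag was left out. In the main setting 5.54% and 9.53% of genes above 50 CPM reached 2-fold. Of the genes that Hcst is read against, 19.8% and 27.8% did. These shares were not recomputed for the other settings, so the counts there have no background beside them. No alternative put a member 2-fold apart between the experiments. Under the marker-UMI filter, though, the Tyrobp ratio of experiment 2 to experiment 1 was 0.591 in place of 1.28, the other direction. Leaving aside the marker-UMI filter, the settings that moved a ratio by over 1.5 times were the loss of hashtag 7 for Tyrobp and of the other-class clusters for Fcer1g, both in experiment 2 and given with the results. With TMM scaling, 13 of the 20 most similar genes were shared with those named. Under HTODemux calls the dendritic-like class of experiment 2 held only the Xcr1 cluster, and its levels were 46.0 CPM for Fcer1g and 7.83 CPM for Nkg7; the Tyrobp level of the B-lineage-like cells was 74.3 CPM and their Nkg7 level 36.9 CPM, against 312.9 and 123.2; with 3000 variable genes the Nkg7 level of the innate lymphoid-like class of experiment 1 was 242.4 CPM. The causes were not tested. Hcst, at under 50 CPM, is limited most by depth. No paired analysis was possible because hashtags carry no condition and no replicate number from the labels.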
